A study of Mus musculus with 9 samples.

Results

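The genes described here are the replication-dependent histone genes of the mouse, taken as every row of the deposited gene count table whose symbol begins with Hist1h, Hist2h, Hist3h or Hist4h, with pseudogenes (symbols containing -ps) left out. This rule gave 67 of the 24421 genes in the table: 6 of class H1, 18 of class H2a, 18 of class H2b, 12 of class H3 and 13 of class H4. RNA was sequenced from 9 tumors grown from bEnd.3 cells (murine endothelial cells that polyoma middle T antigen has transformed), placed in the right flank of male athymic mice of the Nu/Nu nude background, whose ages the sources do not give. The 4 vehicle tumors came from mice given ethanol in DPBS, and the 5 R-propranolol tumors from mice given the R stereoisomer of propranolol at 6 mg/kg per day. Both were injected intraperitoneally 5 times a week, and R-propranolol began on the second day after the cells were injected. The tumors combined transformed endothelial cells of a single established line with host tissue, and the labels do not say that each library came from a separate animal, so p-values measure only the spread between these samples.

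Histones are the proteins around which DNA is wound: H2A, H2B, H3 and H4 form the nucleosome core, and the linker histone H1 binds DNA where it enters and leaves the core. The clustered genes are transcribed mainly in S phase, when new DNA needs new nucleosomes, and their mRNAs usually carry no poly(A) tail but end just after a conserved stem-loop bound by the protein encoded by Slbp. Some clustered genes can also be read through to a downstream polyadenylation signal or spliced, which gives polyadenylated mRNAs that are made outside S phase and in cells that no longer divide. The sources used here name the NEBNext Ultra RNA kit but do not say whether poly(A) selection or rRNA depletion was used, so how far tailless histone mRNAs could enter these libraries is not known.

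The stem-loop was found in the GENCODE M21 transcripts (mouse GRCm38, the assembly also called mm10) of 46 of the 67 genes, 24 to 61 bases after the stop codon with a median of 34. It occurred in 8 versions, the commonest of which was shared by 26 genes of classes H1, H2a, H2b and H3. The following members, which later results turn on, are shown 5′ to 3′ as DNA letters, with the 16-base stem-loop in capitals and 5 flanking bases on each side.

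Hist1h1c (H1, stem-loop at chr13:23739512-23739527, plus strand): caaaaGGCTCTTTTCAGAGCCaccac

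Hist1h1e (H1, chr13:23621782-23621797, minus strand): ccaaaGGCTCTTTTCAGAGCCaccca

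Hist3h2a (H2a, chr11:58955172-58955187, plus strand): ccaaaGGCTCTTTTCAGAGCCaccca

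Hist1h3f (H3, chr13:23544932-23544947, plus strand): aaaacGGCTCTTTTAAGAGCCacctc

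Hist1h4h (H4, chr13:23531458-23531473, plus strand): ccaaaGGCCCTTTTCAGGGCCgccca

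Hist1h4i (H4, chr13:22040966-22040981, minus strand): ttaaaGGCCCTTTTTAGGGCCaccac

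Hist2h4 (H4, chr3:96262939-96262954, minus strand): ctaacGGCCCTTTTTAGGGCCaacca

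The version in Hist1h4h was shared by 7 genes, all of class H4, and the version in Hist1h4i and Hist2h4 was found in those 2 genes alone among the 67. The version in Hist1h3f was shared by 6 genes of classes H1, H2b and H3. Hist1h2bc and Hist2h2be, 2 of the better covered H2b genes, had no such stem-loop in their annotated transcripts.

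Total gene counts per tumor ran from 20599904 to 27852630. The histone genes took 2112 to 4435 of them, or 0.00943% to 0.0168%, and a count of 3, the upper limit that a count of 0 allows for counting error, was worth 0.106 to 0.199 CPM (counts relative to library size, scaled by the trimmed mean of M values, TMM). R-propranolol replicate 5 stood apart. Its log2 CPM correlated with the other tumors at 0.724 to 0.802 across genes, against 0.928 or more among the other 8, and its TMM factor was 0.753 against 0.966 to 1.10. All 15 endothelial markers checked were detected, at a summed 892 to 1426 CPM. The 20 skeletal muscle markers summed to 212128 CPM in replicate 5, or 15.1% of its gene counts, against 36.0 to 567 CPM elsewhere, and the 10 adipocyte markers summed to 5312 CPM against 145 to 469. Hepatocyte markers summed to 2.56 to 38.2 CPM in vehicle tumors and 22.0 to 290 CPM in R-propranolol tumors, macrophage markers to 671 to 3664 CPM, keratinocyte markers to 4.06 to 56.2 CPM, lymphocyte markers to 2.05 to 8.89 CPM and erythroid markers to 4.22 to 27.2 CPM, with 4 globin genes listed at 0. The main results are given with and without replicate 5. In whole tumors, fewer cells of a type and less RNA per cell cannot be told apart.

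A handful of genes carried most histone counts. The linker histone gene Hist1h1c (8777 counts over the 9 tumors), the H2B gene Hist1h2bc (8252), the H2A gene Hist3h2a (2289) and the H4 gene Hist1h4i (1472) together held 78.8% ± 1.61 of the histone counts of vehicle tumors (SD, n = 4) and 78.2% ± 3.91 of those of R-propranolol tumors (SD, n = 5). At the other end, 50 of the 67 genes had fewer than 100 counts over the whole set, 36 were detected in all 9 tumors and 10 were at 0 in every tumor. Those 10 were Hist1h2aa, Hist1h2ao, Hist1h2ap, Hist2h2aa1, Hist1h2ba, Hist1h2bq, Hist1h2br, Hist2h3c1, Hist2h3c2 and Hist1h4m. Hist1h2aa and Hist1h2ba are testis histone genes, and the third testis gene, Hist1h1t, had 10 counts in all.

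**Figure D1:**
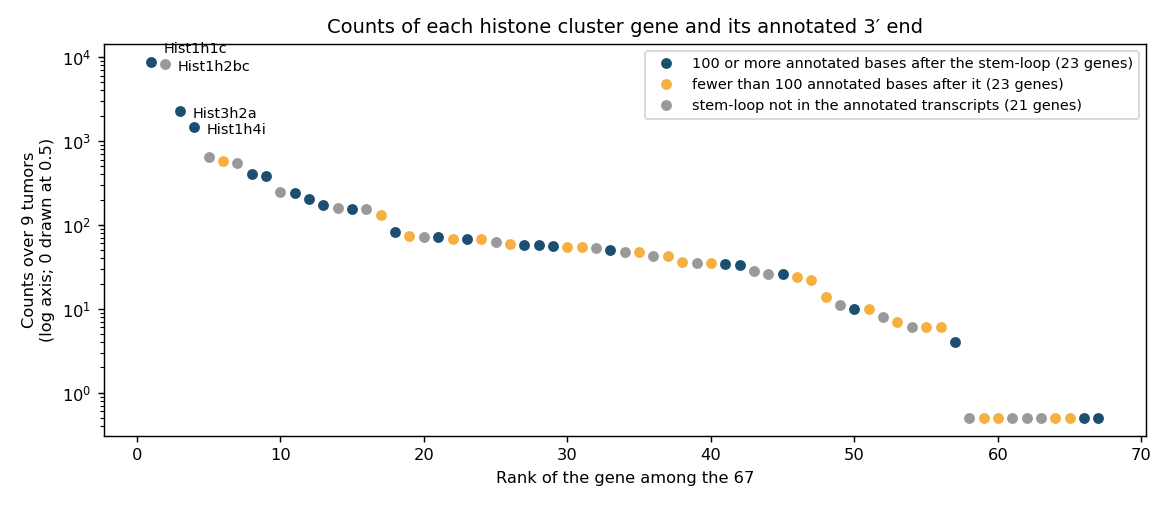
Counts summed over the 9 tumors (log axis, genes at 0 drawn at 0.5) for the 67 histone genes in rank order, colored by whether the annotated transcript runs 100 or more bases past the stem-loop, fewer, or holds no stem-loop. Hist1h1c and Hist1h2bc stand above the rest, and 10 genes lie at 0.

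Each class except H3 had a clear leader. Hist1h1c held 93.9% ± 1.07 of H1 counts in vehicle tumors (SD, n = 4), Hist1h2bc 80.4% ± 3.33 of H2b counts, Hist3h2a 63.5% ± 12.2 of H2a counts and Hist1h4i 61.8% ± 4.58 of H4 counts. Class H3 was spread more evenly, with its leader Hist1h3d at 26.9% ± 3.89. Per kilobase of annotated exon, the mean level over the 9 tumors was 33.3 CPM for Hist1h2bc, 27.5 for Hist1h1c, 10.04 for Hist1h4i, 7.59 for Hist1h4h, 6.27 for Hist1h2af and 4.98 for Hist3h2a, against a median of 0.329 over the 67 genes. Dividing by length kept Hist1h2bc and Hist1h1c in front and placed Hist1h4i above Hist3h2a, and both orders held without R-propranolol replicate 5. The level of Hist1h4h rested on that tumor and was 2.29 CPM per kilobase without it, below Hist3h2a at 4.84.

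The leaders had long or spliced annotated 3′ ends. Hist1h1c (ENSMUSG00000036181.2, chr13:23738808-23740367, plus strand, a single exon of 1560 bases) ran 840 bases past its stem-loop, Hist3h2a (ENSMUSG00000078851.4, chr11:58954685-58956830, plus strand) 1643 bases and Hist1h4i (ENSMUSG00000060639.5, chr13:22040636-22041362, minus strand) 330 bases. Hist1h2bc (ENSMUSG00000018102.5, chr13:23684199-23692908, plus strand) is annotated with 2 exons. The 23 genes with 100 or more annotated bases past the stem-loop held 55.6% of the histone counts, and the 23 with fewer held 5.03%. That boundary was set after the values had been seen. The median gene had 68 counts in the long-tailed set and 35 in the short-tailed set. Per kilobase the order of the medians was the other way, at 0.227 CPM for the long-tailed and 0.329 for the short-tailed genes. The sets were split on a part of that same length (median 1249 exon bases against 485), so dividing by it cannot settle which set was higher.

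By position, the 54 genes on chromosome 13 (chr13:21715763-23934851) held 87.2% of the counts, the 10 on chromosome 3 held 3.99%, the pair on chromosome 11 held 8.7% and Hist4h4 on chromosome 6 held 0.0986%. Histone genes of a class are close copies of each other, which affects how reads can be assigned. A median of 24.5% of a gene's 150-base windows occurred identically in the transcripts of another gene. Among the 10 genes at 0 the median was 88.4%, and Hist1h2ao and Hist1h2ap, which shared 91.5% and 91.0% of their windows, are the nearest copies of each other. The table's counts for such near-identical genes are uncertain, and a 0 there does not show that the gene was silent. The same holds for some genes tested below. Hist2h2bb shared 100% of its windows, Hist1h2ai 86.1%, Hist1h2ad 59.3%, Hist1h2af 58.4% and Hist1h4k 53.4%. Hist1h1c and Hist2h4 shared no window with another gene, and Hist1h4i shared 2.08%.

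No histone gene passed the test of a difference between the groups. Of the 67 genes, 18 had enough counts to be tested by edgeR's quasi-likelihood test, 4 of class H1, 5 of H2a, 5 of H2b, 1 of H3 and 3 of H4. The fitted value was higher in R-propranolol tumors for 12 of the 18 (54.3% of all 13901 genes tested were higher) and lower for 6, with a median log2 fold change of 0.30 against 0.029 over all genes tested. No histone gene reached an unadjusted p under 0.05 in either direction, where 2.01% of all genes did so upward and 0.288% downward, and no histone gene passed at an adjusted p under 0.05, like 0% of all genes. DESeq2's Wald test gave a p for 16 of the 18 (none for Hist1h1e and Hist1h4h, which it set aside for outlying counts). It called 0 of the 16 at an unadjusted p under 0.05 (5% of all 13131 genes with a p) and 0 at an adjusted p under 0.05 (0.0152% of all genes). The groups overlapped for all 18, where 0.633% of all genes lay entirely higher and 0.626% entirely lower in R-propranolol tumors.

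Leaving out R-propranolol replicate 5 lowered the median fitted value, but the absolute log2 fold change became larger for 9 of the 18 genes and smaller for 9. Without that tumor 12 of 18 histone genes were fitted higher (53.7% of all 13743 genes then tested), the median log2 fold change was 0.098 (0.012 over all genes), and 0 reached an unadjusted p under 0.05 in edgeR's test, where 3.78% of all genes did. With all tumors and TMM scaling, replicate 5 held the highest level of 8 of the 18 histone genes and the lowest level of 5. Over all genes tested it held the highest level of 36.5% and the lowest of 42.1%. When TMM scaling was left out, Hist1h1d and Hist3h2a were no longer highest in replicate 5, and Hist1h2ad and Hist1h2ae were lowest there.

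**Figure D2:**
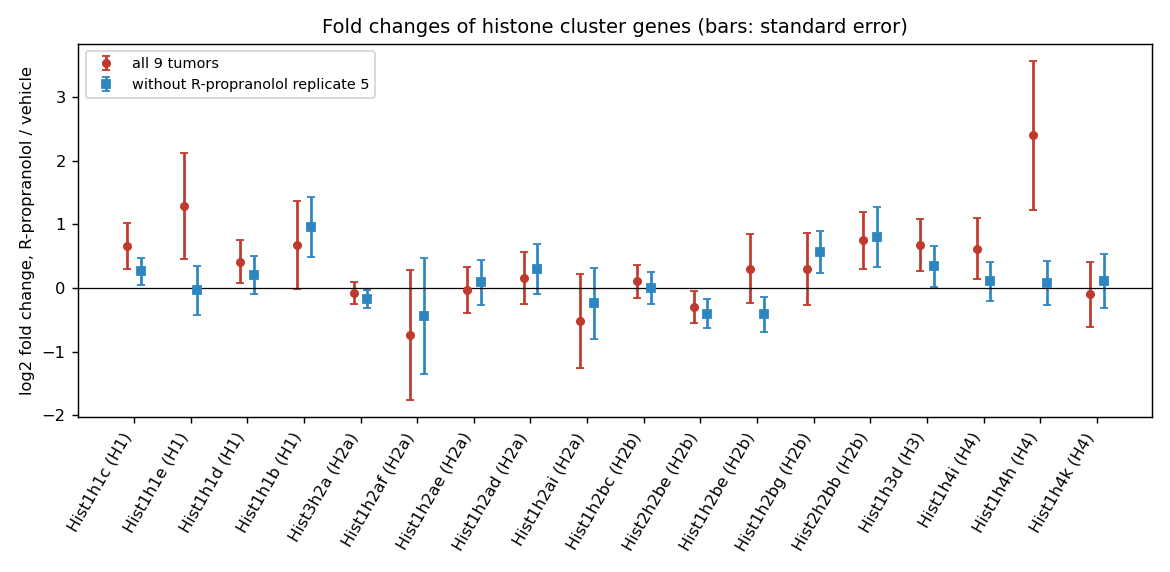
Log2 fold change (R-propranolol over vehicle) with its standard error for the 18 tested histone genes, from all 9 tumors (circles) and without R-propranolol replicate 5 (squares). Hist1h4h moves from 2.40 to 0.084 and Hist1h1e from 1.29 to -0.033 when that tumor is left out.

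Summed over the members, the histone genes were highest in R-propranolol replicate 5. The 67 genes summed to 90.9, 127, 100 and 118 CPM in vehicle replicates 1 to 4, and to 105, 111, 159, 90.3 and 236 CPM in R-propranolol replicates 1 to 5. Replicates 3 and 5 of the R-propranolol group lay above every vehicle tumor, and the other 3 lay among or just below them. The vehicle mean was 109 CPM ± 16.4 (SD, n = 4) and the R-propranolol mean 140 CPM ± 59.3 (SD, n = 5). The log2 ratio of these means was 0.36, and 0.094 without replicate 5. With CPM not scaled by TMM and taken over all gene counts, the histone genes summed to 168 CPM in replicate 5 and 159 CPM in R-propranolol replicate 3. The scaled CPM of replicate 5 are raised by its TMM factor and by using only the total of genes kept for testing.

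Classes H1 and H4 differed most from vehicle in replicate 5. H1 summed to 34.5 ± 6.09 CPM in vehicle and 55.0 ± 31.6 CPM in R-propranolol tumors, with 108 CPM in replicate 5. H4 summed to 8.996 ± 2.06 and 17.1 ± 15.4 CPM, with 44.4 CPM in replicate 5, and without that tumor the log2 ratios of the means were 0.27 for H1 and 0.20 for H4 in place of 0.67 and 0.93. H2a summed to 17.6 ± 2.12 and 15.8 ± 2.14 CPM, H2b to 45.9 ± 7.80 and 49.5 ± 14.4 CPM and H3 to 2.14 ± 0.246 and 2.83 ± 1.02 CPM. Without TMM scaling, replicate 5 was still the highest tumor for H1 (77.4 CPM) and H4 (31.6 CPM) but the lowest for H2a (10.8 CPM). The H2a ratio was the single class ratio below 0 (-0.15), and the H2b ratio of 0.11 turned to -0.045 when CPM were scaled by library size alone. The sums count RNAs of very unequal lengths and are not compared between classes.

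**Figure D3:**
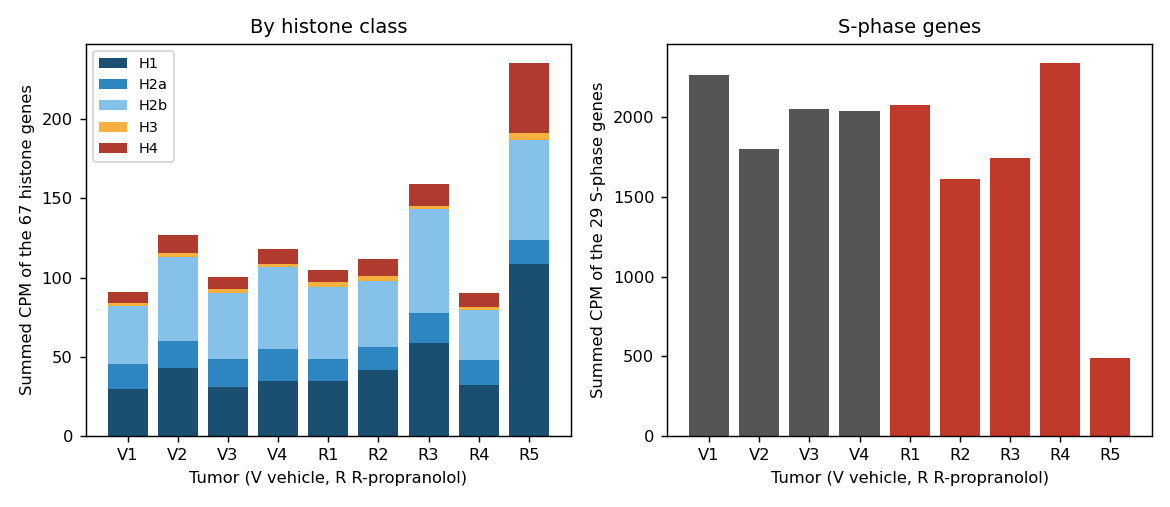
Left, summed CPM of the 67 histone genes in each tumor (V1 to V4 vehicle, R1 to R5 R-propranolol), stacked by class from 0. Right, summed CPM of the 29 S-phase genes in the same tumors. R-propranolol replicate 5 has the tallest histone bar (236 CPM) and the shortest S-phase bar (490 CPM).

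Among the linker histones, which bind between nucleosomes, Hist1h1c was the most abundant. Its level was 27.8, 40.9, 28.6 and 32.6 CPM in vehicle replicates 1 to 4 and 33.0, 39.2, 55.0, 28.9 and 101 CPM in R-propranolol replicates 1 to 5. R-propranolol replicates 3 and 5 exceeded every vehicle tumor and the other 3 overlapped them. The log2 fold change was 0.66 (SE 0.37, adjusted p = 0.876 by edgeR), and 0.26 without replicate 5. Without TMM scaling the gene was also highest in replicate 5, at 71.7 CPM against 30.2 to 54.9 CPM elsewhere.

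The linker gene Hist1h1e (chr13:23620629-23622558, minus strand) had 0.732, 0.462, 0.992 and 0.807 CPM in vehicle tumors and 0.353, 0.921, 0.719, 0.943 and 6.38 CPM in R-propranolol tumors. Replicate 5 was thus far above the other 8, which overlapped fully. The fitted log2 fold change of 1.29 (SE 0.83, adjusted p = 0.876 by edgeR) became -0.033 without it. Its exons overlap those of Hist1h2be and Gm11398 on the same strand, so counts of these genes are uncertain. Hist1h2be (chr13:23583670-23621124, minus strand), a core H2B gene, showed the same tumor as its maximum, with 1.39 to 2.27 CPM in vehicle, 0.918 to 1.76 CPM in R-propranolol replicates 1 to 4 and 5.92 CPM in replicate 5. Its log2 fold change was 0.31 (SE 0.54) and -0.41 without replicate 5.

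The remaining tested linker genes differed among themselves. Hist1h1b had 0.344, 0.809, 0.595 and 0.332 CPM in vehicle tumors and 0.671, 0.520, 1.62, 1.27 and 0.0665 CPM in R-propranolol tumors. R-propranolol replicates 3 and 4 were its highest tumors and replicate 5, with a single count, its lowest, opposite to Hist1h1c. Leaving out replicate 5 moved its log2 fold change from 0.68 (SE 0.68) to 0.96 (SE 0.47). Hist1h1d lay at 0.635 to 0.809 CPM in vehicle and 0.533 to 1.46 CPM in R-propranolol tumors, with a log2 fold change of 0.42 (SE 0.34). Replicate 5 was its highest tumor after TMM scaling. Not scaled by TMM, replicate 5 had 1.04 CPM, below the highest tumor elsewhere at 1.15 CPM. The other 2 linker genes, Hist1h1a with 11 counts in all and the testis gene Hist1h1t, were too low to test.

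Class H2a encodes the core partner of H2B. Its leader Hist3h2a had 11.4, 12.3, 10.2 and 10.02 CPM in vehicle tumors and 9.60, 10.05, 11.5, 8.03 and 13.1 CPM in R-propranolol tumors. All 9 tumors lay close together, and the place of replicate 5 depended on the scaling. It was highest after TMM scaling, but without it had 9.34 CPM, below the 10.2 to 12.8 CPM of the vehicle tumors. Its log2 fold change was -0.072 (SE 0.18, adjusted p = 0.902 by edgeR). The gene's exons overlap 708 bases of Trim17 on the same strand, so its counts are uncertain.

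Hist1h2af, another core H2A gene, varied widely within both groups. It had 1.08, 0.617, 3.53 and 7.69 CPM in vehicle tumors and 1.16, 0.360, 3.34, 4.59 and 0.133 CPM in R-propranolol tumors. Both groups held high and low tumors, and the fitted log2 fold change of -0.74 had an SE of 1.02. Hist1h2ai lay at 0.237 to 0.501 CPM in vehicle tumors and at 0 to 0.539 CPM in R-propranolol tumors, with 0 counts in replicate 5 (log2 fold change -0.51, SE 0.74). Hist1h2ad (0.16, SE 0.41) and Hist1h2ae (-0.025, SE 0.36) were fitted near 0. The 9 detected but untested H2a genes had 7 to 82 counts over the 9 tumors.

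In class H2b, whose protein pairs with H2A, the leader Hist1h2bc had 28.4, 41.5, 34.8 and 43.1 CPM in vehicle tumors and 36.5, 33.5, 54.7, 23.5 and 50.7 CPM in R-propranolol tumors. The highest and the lowest tumor were both in the R-propranolol group. The log2 fold change was 0.11 (SE 0.25, adjusted p = 0.900 by edgeR). Unlike Hist1h1c, it did not have its maximum in replicate 5.

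Hist2h2be, an H2B gene with a long annotated transcript of 2620 bases and no stem-loop in it, was 1 of the 6 tested genes fitted lower. Its values were 3.53, 4.20, 3.06 and 2.47 CPM in vehicle tumors and 2.61, 2.68, 1.90, 2.83 and 3.52 CPM in R-propranolol tumors. The groups overlapped (log2 fold change -0.29, SE 0.25, adjusted p = 0.876 by edgeR). Hist2h2bb had 0.689, 1.503, 0.317 and 0.712 CPM in vehicle and 1.62, 1.001, 2.01, 1.02 and 1.13 CPM in R-propranolol tumors. All but 1 of the vehicle tumors, replicate 2, lay below the whole R-propranolol group. Its log2 fold change was 0.75 (SE 0.45, adjusted p = 0.876 by edgeR). With a tumor left out it ran from 0.48 (without vehicle replicate 3) to 1.24 (without vehicle replicate 2, adjusted p = 0.950 by edgeR). All of its exon bases overlap Gm20628 on the other strand, and no source says whether counting used strand, so its reads cannot be told apart from that gene's. On the same strand, 226 of its 381 exon bases overlap Gm42743. Hist1h2bg, at 0.952 to 2.04 CPM in vehicle tumors and 1.52 to 3.23 CPM in R-propranolol replicates 1 to 4, was lowest in replicate 5 at 0.266 CPM (log2 fold change 0.30, SE 0.56). The 10 detected but untested H2b genes had 4 to 74 counts over the 9 tumors.

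Class H3, which carries much of the histone modification that marks active and silent genes, had a single tested gene. Hist1h3d had 0.559, 0.539, 0.556 and 0.617 CPM in vehicle tumors and 0.671, 1.16, 0.575, 0.492 and 1.73 CPM in R-propranolol tumors. Vehicle tumors were tightly grouped and R-propranolol tumors were spread on both sides of them, with replicate 5 highest. The log2 fold change was 0.68 (SE 0.41, adjusted p = 0.876 by edgeR) and 0.34 without replicate 5.

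Class H4, which forms the core tetramer with H3, held the gene with the smallest p of all 18. Hist1h4h (ENSMUSG00000060981.7, chr13:23531050-23531519, plus strand, a single exon of 470 bases) had 0.559, 1.31, 0.794 and 1.52 CPM in vehicle tumors and 1.31, 1.04, 1.22, 0.861 and 23.5 CPM in R-propranolol tumors. The first 4 R-propranolol tumors lay inside the vehicle range, and replicate 5 alone, with 353 counts against 13 to 37 elsewhere, set the fitted log2 fold change of 2.40 (SE 1.17, adjusted p = 0.876 by edgeR). Without it the log2 fold change was 0.084 (SE 0.35). Hist1h4h made up 9.95% of the histone counts of replicate 5, against 0.616% to 1.29% in vehicle tumors.

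Hist1h4i, the class leader, had 4.26, 7.98, 4.604 and 5.60 CPM in vehicle tumors and 4.80, 5.48, 9.63, 4.30 and 19.0 CPM in R-propranolol tumors. As for Hist1h1c, R-propranolol replicates 3 and 5 were the 2 highest tumors and the rest overlapped. The log2 fold change was 0.62 (SE 0.48, adjusted p = 0.876 by edgeR), and 0.11 without replicate 5. Hist1h4k, in contrast, was lowest in replicate 5 (0.199 CPM) and ran from 0.388 to 1.20 CPM in the other 8 tumors (log2 fold change -0.10, SE 0.51).

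**Figure D4:**
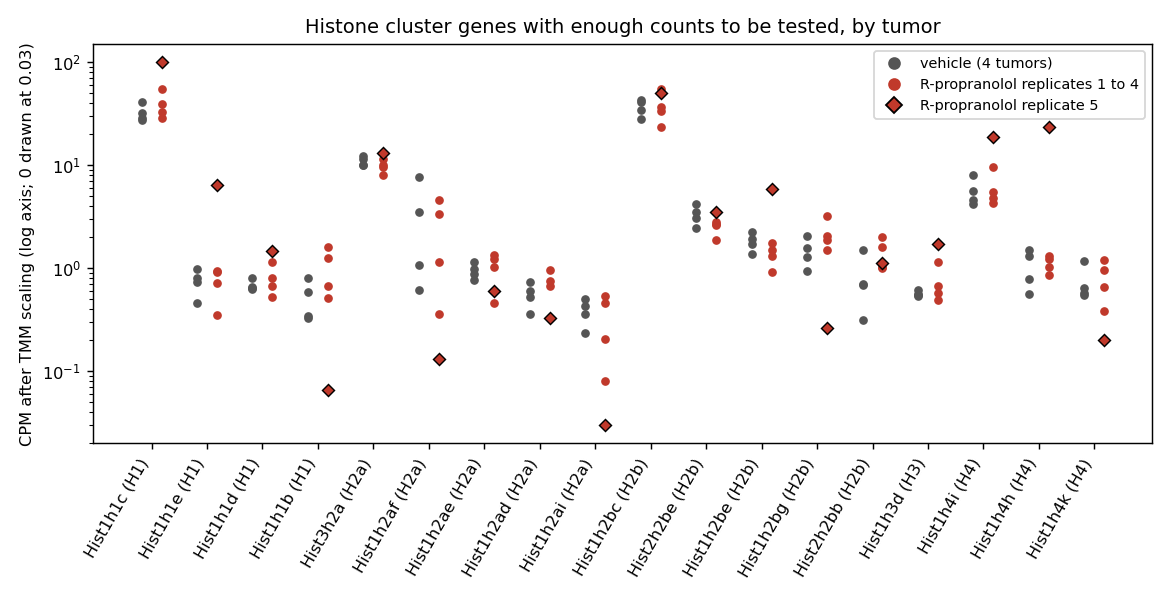
CPM after TMM scaling (log axis, 0 drawn at 0.03) of the 18 tested histone genes in each of the 9 tumors, ordered by class and mean level. Gray points are vehicle tumors, red points R-propranolol replicates 1 to 4, and diamonds R-propranolol replicate 5, which lies far above the others for Hist1h1e, Hist1h2be and Hist1h4h and below them for Hist1h1b and Hist1h2af.

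The 49 untested genes had at most 21 counts in any tumor and mean levels of at most 0.375 CPM. When the low-count filter was dropped, 57 of the 67 genes could be fitted, of which 35 were higher and 22 lower in R-propranolol tumors (55% of the 19611 genes then tested were higher). Class H4 had 11 of its 12 fitted genes higher, class H1 had 4 of 6, and the other classes divided 7 to 7, 8 to 7 and 5 to 5. At these depths, 2 genes reached an unadjusted p under 0.05 upward (2.6% of all genes did) and 0 downward (0.597% of all genes), all with adjusted p of 0.780 or more by edgeR.

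Both were H3 genes. Hist1h3f had 3, 3, 4 and 4 counts in vehicle tumors and 10, 5, 10, 5 and 13 counts in R-propranolol tumors, or 0.116 to 0.190 and 0.200 to 0.864 CPM. It was the only 1 of the 57 whose groups did not overlap with R-propranolol higher, where 0.571% of all genes did so. Its log2 fold change was 1.33 (SE 0.54, adjusted p = 0.780 by edgeR), and 0.90 without replicate 5. The vehicle counts of Hist1h3f lie at or just above the limit of 3 counts, so this fold and the lack of overlap are uncertain. Hist1h3c, named here because its values had been seen, had 2, 1, 0 and 0 counts in vehicle tumors and 3, 6, 4, 2 and 4 counts in R-propranolol tumors (adjusted p = 0.780 by edgeR). Its vehicle counts lie at or below the limit of 3 counts, so no fold is given.

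Hist2h4, an H4 gene of the chromosome 3 cluster (chr3:96261682-96263311, minus strand) that runs 1257 bases past its stem-loop, had 6, 5, 7 and 2 counts in vehicle tumors and 6, 11, 12, 14 and 8 counts in R-propranolol tumors. All but the first R-propranolol tumor were above every vehicle tumor by count. Its log2 fold change without the filter was 1.04 (SE 0.47, adjusted p = 0.780 by edgeR), and 0.98 without replicate 5. Hist2h4 and Hist1h3f were picked by the study on these same tumors, so their direction is not independent evidence.

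The promoters of the clustered genes share short elements, and they are shown here for 3 members that peaked in R-propranolol replicate 5. RefSeq promoters (GRCm38.p6, 250 bases before to 50 after the gene's start) were matched for 62 of the 67 genes. Capitals mark the TATA box TATAAA, the CCAAT box CCAAT, the octamer ATTTGCAT and the H1 box AAACACA, searched on both strands.

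Hist1h1c (chr13:23738557-23738856, plus strand): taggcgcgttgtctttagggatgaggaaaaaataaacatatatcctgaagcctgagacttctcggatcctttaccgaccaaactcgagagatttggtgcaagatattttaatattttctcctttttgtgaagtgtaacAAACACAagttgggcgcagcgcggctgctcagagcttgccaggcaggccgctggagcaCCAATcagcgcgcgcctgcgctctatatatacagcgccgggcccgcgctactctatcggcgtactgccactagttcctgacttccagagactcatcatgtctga

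Hist1h1e (chr13:23622509-23622808, minus strand): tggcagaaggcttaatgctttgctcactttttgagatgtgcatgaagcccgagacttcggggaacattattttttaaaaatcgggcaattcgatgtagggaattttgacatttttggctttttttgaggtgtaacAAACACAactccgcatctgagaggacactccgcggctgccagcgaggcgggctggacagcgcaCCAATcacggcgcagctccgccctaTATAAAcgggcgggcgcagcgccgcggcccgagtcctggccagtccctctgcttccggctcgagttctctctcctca

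Hist1h4h (chr13:23530794-23531093, plus strand): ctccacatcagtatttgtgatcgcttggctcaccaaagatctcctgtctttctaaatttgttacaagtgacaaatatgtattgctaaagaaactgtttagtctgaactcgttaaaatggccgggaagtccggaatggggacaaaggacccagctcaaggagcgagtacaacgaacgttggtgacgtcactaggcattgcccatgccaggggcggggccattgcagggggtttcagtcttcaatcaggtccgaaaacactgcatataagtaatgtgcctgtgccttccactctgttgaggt

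The H1 box and CCAAT box stood close together in both linker genes, while Hist1h4h held none of the 4 motifs as spelled. The H1 box was found in 83.3% of H1 promoters and 14.5% of all 62, against 7.18% of the 32851 promoters in the table. CCAAT was found in every promoter of classes H1, H2a, H2b and H3 and in 25% of H4 promoters, against 37.4% of all promoters. TATAAA was found in 56.5% of histone promoters and 13.6% of all. The octamer was found in 38.9% of H2a and 43.8% of H2b promoters and in no promoter of the other classes, against 1.74% of all. No motif as spelled is contained in another, and a match describes letters only.

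Genes of DNA replication were described beside the histone sums. The 29 S-phase genes, among them the replication factors Mcm4, Pcna and Fen1, summed to 1801 to 2263 CPM in vehicle tumors, 1611 to 2344 CPM in R-propranolol replicates 1 to 4 and 490 CPM in replicate 5. The tumor with the highest histone sum thus had the lowest S-phase sum. Of these genes 1 was fitted higher and 28 lower in R-propranolol tumors (median log2 fold change -0.30), 0 reached an unadjusted p under 0.05 by edgeR or DESeq2, and 28 had their lowest level in replicate 5. Over all genes tested, 54.3% were fitted higher and 42.1% were lowest in replicate 5. By edgeR 2.01% of all genes reached that p upward and 0.288% downward, and by DESeq2 5% reached it. Without replicate 5, 5 S-phase genes were higher and 24 lower, with a median of -0.073, where 53.7% of all genes were higher.

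Mcm4, a subunit of the replicative helicase, had 98.2 ± 12.02 CPM in vehicle (SD, n = 4) and 76.3 ± 30.8 CPM in R-propranolol tumors (SD, n = 5), with 28.0 CPM in replicate 5. Pcna, the sliding clamp of DNA polymerase, had 196 ± 12.2 and 160 ± 58.2 CPM, with 60.2 CPM in replicate 5, and Fen1, the flap endonuclease, had 38.5 ± 3.75 and 31.1 ± 10.1 CPM. The 20 mitosis genes were likewise all lowest in replicate 5 (42.1% of all genes tested were), with a summed 328 CPM there and 1432 to 1973 CPM elsewhere. Top2a, which untangles DNA before division, had 50.9 CPM in replicate 5 and 241 to 384 CPM elsewhere, and Plk1 and Kif20a, a mitotic kinase and a kinesin, had 10.1 and 13.4 CPM there. None of the 20 reached an unadjusted p under 0.05 by edgeR or DESeq2. Of all genes, 2.01% did so upward and 0.288% downward by edgeR, and 5% did so by DESeq2. The part of host muscle, adipose or macrophage RNA in these values of replicate 5 was not tested; its macrophage markers summed to 3664 CPM against 671 to 2998 CPM elsewhere.

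Genes that make or handle histone mRNA were also described. Of 23 such genes, 6 were fitted higher and 17 lower (median log2 fold change -0.081), but without R-propranolol replicate 5, where 16 of them were lowest, 14 were higher and 9 lower (median 0.0057). Of all genes tested 42.1% were lowest in that tumor, and 54.3% were fitted higher, or 53.7% without it. With all tumors 1, Ncbp2, the small subunit of the nuclear cap-binding complex, reached an unadjusted p under 0.05 by edgeR, downward. Over all genes tested 0.288% did so downward and 2.01% upward. Ncbp2 had 49.4 ± 3.20 CPM in vehicle and 41.4 ± 4.31 CPM in R-propranolol tumors (log2 fold change -0.25, SE 0.11, adjusted p = 0.876 by edgeR). Slbp, which encodes the stem-loop binding protein, had 55.6 to 65.3 CPM in vehicle tumors and 51.8 to 63.0 CPM in R-propranolol replicates 1 to 4, with 25.9 CPM in replicate 5 (log2 fold change -0.25, SE 0.23). Npat, the coactivator of histone gene transcription, and Casp8ap2, a component of the histone locus body, had log2 fold changes of -0.18 (SE 0.26) and -0.29 (SE 0.28). Lsm10, of the U7 particle that cuts histone mRNA, and the abundant Sm protein gene Snrpb had values of -0.19 (SE 0.13) and -0.14 (SE 0.092).

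Of 22 histone chaperone genes, 6 were fitted higher and 16 lower (median log2 fold change -0.13), and 0 reached an unadjusted p under 0.05 by edgeR or DESeq2. Of all genes, 54.3% were fitted higher, and 2.01% reached that p upward and 0.288% downward by edgeR, and 5% by DESeq2. Without replicate 5, where 17 of them were lowest (42.1% of all genes tested), 10 chaperone genes were higher and 12 lower (median -0.0033). Asf1a, which carries H3 and H4, had 13.3 ± 2.42 CPM in vehicle and 15.7 ± 3.06 CPM in R-propranolol tumors, Hjurp, which loads the centromeric H3, had 10.2 ± 1.02 and 7.47 ± 3.06 CPM, and the abundant Npm1 had 480 ± 32.7 and 457 ± 133 CPM.

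Replacement histones, made outside S phase from polyadenylated mRNAs, were 15 of 16 listed genes in the table, and 11 were tested. Of the 11, 4 were fitted higher and 7 lower (54.3% of all genes were higher). By edgeR 0 reached an unadjusted p under 0.05, where 2.01% of all genes did so upward and 0.288% downward. DESeq2 called 2, H1fx and H2afj, where it called 5% of all genes, and without replicate 5 the edgeR values were 3 higher and 8 lower. H3f3b, an H3.3 gene and the most abundant of them, had 614 to 736 CPM in vehicle tumors, 637 to 696 CPM in R-propranolol replicates 1 to 4 and 252 CPM in replicate 5. The linker variant H1fx also peaked in replicate 5, with 0.190 to 0.794 CPM in vehicle, 0.0820 to 2.32 CPM in R-propranolol replicates 1 to 4 and 10.2 CPM in replicate 5 (log2 fold change 2.62, SE 1.37, adjusted p = 0.876 by edgeR, and 0.82, SE 0.98, without replicate 5). H2afj, an H2A variant, had 127 ± 8.86 CPM in vehicle and 112 ± 7.40 CPM in R-propranolol tumors (log2 fold change -0.18, SE 0.088, adjusted p = 0.876 by edgeR).

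Other RNAs that lack poly(A) tails were scarce. Of 15 such RNAs, 10 were in the table and 2 could be tested, the RNA components of the RNase MRP and RNase P enzymes, Rmrp and Rpph1. The 10 summed to 0.665 to 4.04 CPM, and Rmrp had 0.176 to 2.12 CPM over the 9 tumors (log2 fold change -0.074, SE 0.80), with Rpph1 at -0.13 (SE 0.51). The lowest summed level of these RNAs was 0.665 CPM in R-propranolol replicate 5, followed by 0.953 CPM in R-propranolol replicate 1. A count of 3 was worth 0.199 CPM in replicate 5, so its sum rests on few counts.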

How the data were processed

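RNA of 9 bEnd.3 tumors (4 vehicle, 5 R-propranolol) was analysed from the gene counts the authors deposited, which are raw counts per gene symbol. The submitters' processing notes name STAR, HTSeq, edgeR, FastQC and mm10, with no role given; no source used here gives their versions, the annotation, the counting options or the strand setting. Rows that name no gene were left out, and reads not uniquely aligned were 3.46% to 3.99% of reads listed, 7.86% in R-propranolol replicate 5.

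Genes were tested over the whole table with edgeR 4.0.16 (R 4.3.3; quasi-likelihood test, minimum count 10 and total 15, TMM, Benjamini-Hochberg adjustment over 13901 genes). CPM used TMM-scaled totals of the genes kept. Levels of tumors given without TMM scaling used the totals of all genes, and the alternative of library size alone used the totals of the genes kept. Standard errors were the absolute log2 fold change over the square root of F. The fit was tested on simulated data, with changes set only in well covered genes and no tumor set apart. That test does not cover the low histone genes or a tumor like R-propranolol replicate 5. DESeq2 1.42.0, other scalings and filters, each tumor left out, and a replicate block were alternatives. Vehicle replicates 1 and 2 have 1 number in common in their titles, so summing them was another. Counts of the pair differed beyond sampling noise.

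The histone genes and all lists were chosen with earlier results of these data known. Genes were named by rule: per class the 3 tested genes of smallest p and the most abundant, genes known to be polyadenylated or testis-specific, those the study picked, and per related list the 2 of smallest p and the most abundant, with Slbp, Npat and Casp8ap2. The other tested histone genes, Hist1h3c and the low H1 genes were named after their values were seen. Stem-loops and coordinates are from GENCODE M21 (all 67 genes found), and promoters from RefSeq (62 found). Shared windows were exact matches of 150 bases, on either strand, in transcripts of other genes. Pools, sums and lists got no test.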

Additional observations from a re-analysis of the deposited data

Results flagged for a closer look

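Of 106 groups of tumors examined for a single value set far from the rest by Dixon's criterion, 16 had such a value. The criterion flags about 1 in 20 groups of independent, normally spread values. Sums were examined here beside their own members and CPM need not be normal, so the 16 cannot be set against that rate. R-propranolol replicate 5 gave 10 of the 16. In it the summed H4 level (44.4 CPM), Hist1h4h (23.5 CPM), Hist1h1e (6.38 CPM), Hist1h2be (5.92 CPM), Hist1h3f (0.864 CPM) and the linker variant H1fx (10.2 CPM) were set apart above the other R-propranolol tumors. Plk1 (10.1 CPM), H2afj (98.5 CPM), H3f3b (252 CPM) and the summed replacement histones (1286 CPM) were set apart below them. The same tumor had 212128 CPM of skeletal muscle markers, and the part of that RNA in these values was not tested.

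The other 6 values were single tumors set apart above their own group. They were Hist1h1d in vehicle replicate 2 (0.809 CPM), Hist1h4k in vehicle replicate 4 (1.19 CPM), Ncbp2 in vehicle replicate 1 (54.1 CPM), Npat in vehicle replicate 3 (45.2 CPM), the summed tailless RNAs in vehicle replicate 2 (3.04 CPM) and Rmrp in R-propranolol replicate 2 (2.12 CPM).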

How the results depend on the processing

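No histone gene reached an adjusted p under 0.05 in edgeR or DESeq2 under any alternative run, although DESeq2 gave no p for Hist1h1e and Hist1h4h. With no filter 35 histone genes were fitted higher, 2 reached an unadjusted p under 0.05 and 1 did not overlap; with at least 1 CPM in 4 tumors 7 were higher, of 11 tested. Leaving out each tumor gave from 9 higher of 17 tested (without R-propranolol replicate 3) to 15 of 20 (without vehicle replicate 4). It gave 0 to 1 at an unadjusted p under 0.05 by edgeR and 0 to 1 not overlapping. Except for genes higher without R-propranolol replicate 5, the shares of all genes higher or not overlapping were not computed for these fits. The gene called was Hist2h4 without vehicle replicate 1 (105 of all 14079 genes were called) or 3 (105 of 14065). It was Hist2h2bb without vehicle replicate 2 (103 of 14159) and Hist1h4h without R-propranolol replicate 4 (737 of 13866). The summed log2 ratio then ran from 0.091 to 0.52 for all histone genes, 0.27 to 0.86 for H1, -0.21 to -0.071 for H2a, 0.0020 to 0.26 for H2b, 0.19 to 0.55 for H3 and 0.20 to 1.16 for H4. Genes higher ran from 0 to 5 for S phase and for mitosis, 5 to 14 for mRNA processing, 4 to 10 for chaperones and 3 to 4 for replacement histones; at an unadjusted p under 0.05 they ran from 0 to 1 for processing and replacement histones. Library size alone shifted the median of all genes from 0.029 to -0.10 and gave 0 S-phase, 3 processing, 2 chaperone and 2 replacement genes higher, with Hist1h2bc at -0.048. The 1 CPM filter gave 2 replacement genes higher and DESeq2 gave 2 at an unadjusted p under 0.05. Summing vehicle replicates 1 and 2 gave 0 processing genes at an unadjusted p under 0.05 and Rmrp at 0.12. Deviations from the group mean correlated at -0.29, 0.067, -0.63 and 0.49 between same-numbered tumors of the 2 groups, with no common direction. The R-propranolol mean includes replicate 5, so these values cannot decide whether the numbers pair tumors. A replicate block, whose only unmatched tumor is R-propranolol replicate 5, gave 4 S-phase, 5 mitosis, 13 processing and 11 chaperone genes higher, with Hist1h1e at -0.067, Hist1h2ae at 0.016, Hist1h2bc at -0.039, Hist1h2be at -0.43, Hist1h4k at 0.083 and Npm1 at 0.096. Over the tumors left out, the log2 fold changes that turned sign ran from -0.033 to 1.57 for Hist1h1e, -0.060 to 0.32 for Hist1h2ad, -0.20 to 0.15 for Hist1h2ae, -1.35 to 0.15 for Hist1h2af, -0.0032 to 0.27 for Hist1h2bc, -0.41 to 0.51 for Hist1h2be, -0.023 to 0.57 for Hist1h2bg, -0.39 to 0.21 for Hist1h4k, -0.17 to 0.029 for Hist3h2a, -0.14 to 0.095 for Npm1, -0.61 to 0.12 for Rpph1, -1.07 to 0.48 for Rmrp and -0.27 to 0.00034 for Npat. The cause of these changes was not tested beyond the tumor left out. Most histone genes lie below the depth at which they could be tested.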
